A study of Drosophila melanogaster with 10 samples.

Results

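The nuclear genes of oxidative phosphorylation were followed through wing disks that expressed GFP or 1 of 4 Nkd proteins. The members were taken by symbol: every gene whose FlyBase symbol starts with ND-, UQCR-, ATPsyn, COX4 to COX8 or SdhA to SdhD and that does not lie on the mitochondrial genome. This rule found 87 of the 17807 gene IDs in the count table, 40 of them in complex I, 7 in complex II, 9 in complex III, 16 in complex IV and 15 in complex V. RNA was sequenced from wing imaginal disks of Drosophila larvae late in the third instar, grown at 25 °C, with about 70 disks pooled for each sample and 2 samples in each of 5 groups, which makes 10 libraries. In all groups the transgene was driven by MS1096-Gal4, which is active in the central pouch of the disk, so that each sample mixed expressing and non-expressing cells. The groups were MS1096 > GFP, MS1096 > Nkd_GFPC (full-length Naked cuticle, here Nkd), MS1096 > Nkd_del_R1S_GFPC (NkdΔR1S, without the region that binds Dishevelled), MS1096 > Nkd_del_30aa_GFPC (NkdΔ30aa) and MS1096 > Nkd_del_D6_GFPC (NkdΔD6), the last pair each without a stretch thought to direct the protein to the nucleus. The samples are described as biological duplicates of pooled disks, and p-values measure only the spread between these samples.

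Oxidative phosphorylation takes place in the inner mitochondrial membrane. Complexes I and II pass electrons from NADH and succinate to ubiquinone, complex III passes them to cytochrome c, complex IV passes them to oxygen, and complex V, the ATP synthase, uses the resulting proton gradient to make ATP. Most subunits are nuclear genes, and a small set of core subunits is made from the mitochondrial genome, so that a complex is assembled from the products of both genomes. In Drosophila many of these nuclear genes have a paralog with the suffix L in the symbol, and many such paralogs are known for expression in the testis.

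Each library held between 18695697 and 20941842 counts. nkd, the transgene's own gene, stood at 37.3 and 70.1 CPM (counts scaled to a common library size with TMM factors) in the GFP libraries, at 345 and 512 in NkdΔR1S and between 993 and 1498 in the other 6 libraries, so that the GFP libraries were apart from those with an Nkd transgene. These gene-level counts do not show which stretch was deleted, and the deletion labels were not checked. The 9 wing disk markers, such as vg and nub, were detected and summed to between 984 and 1798 CPM. Markers of some other larval tissues varied much more. Salivary gland genes summed to 15032 CPM in Nkd replicate 1 and 4478 in GFP replicate 1 but to between 48.9 and 1376 in the other 8. In the 10 libraries fat body genes summed to between 522 and 3398 CPM, and gut genes to between 11.0 and 1507. Larval muscle genes ran from 125 to 367 CPM, hemocyte genes from 91.3 to 181, trachea genes from 233 to 406 and nervous system genes from 18.9 to 28.6. The part of these tissues in the results was not tested. In bulk RNA, fewer cells of a type and less RNA per cell cannot be told apart.

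The members are spread over the chromosomes, with 16 on 2L, 17 on 2R, 20 on 3L, 19 on 3R, 2 on 4 and 13 on X. Of the 87, 63 passed the filter on low counts and were tested among 9264 genes. The 24 that did not pass were mostly the paralogs: 21 of the 24 paralogs with the suffix L were below the filter, against 3 of the other 63 members. The paralogs that passed were ATPsynepsilonL, ND-24L and COX4L. ND-24L and COX4L passed through the GFP libraries alone, in which each had its highest values, so that their lower values elsewhere are given only as a description.

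The 3 other members below the filter were ND-MNLL, UQCR-14 and ND-B8. ND-MNLL (chromosome X, 7893053 to 7893798, BDGP6) and UQCR-14 (chromosome X, 16286288 to 16286988) had 0 counts in every library, and ND-B8 had 5 counts in all. Every exon base of ND-MNLL lies within CG45089 on the same strand, and every exon base of UQCR-14 lies under CG32576 on the other strand. The same held for the paralog COX5BL, which lies under Trmt6 and had 0 counts. In the whole table, 125 of 125 genes whose exons lie fully under genes of the other strand had 0 counts, against 3387 of all 17807 genes. A 0 for UQCR-14 or COX5BL therefore says nothing about its expression. How many genes that lie fully within a gene of the same strand had 0 counts was not determined, and ND-MNLL is given only as listed at 0. Exon bases shared with another gene were present in 34 members, 28 of them tested, and reads from the shared stretch cannot be assigned to either gene. All 38 genes of the mitochondrial genome, among them 13 subunits of complexes I, III, IV and V, were also listed at 0 in all libraries, so that nuclear and mitochondrial subunits could not be compared.

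Levels between genes were compared per exon length, as RPKM (CPM divided by exon length in kilobases) averaged over the 10 libraries. Among tested members other than paralogs, complexes IV and V were the most abundant, with medians of 401 and 391 RPKM, followed by complex III at 165, complex II at 115 and complex I at 112. The highest member was ATPsynC, the subunit of the membrane ring that turns as protons pass. Its level was between 946 and 1295 RPKM in the 10 libraries, with a mean of 1097. GFP replicate 1 was its highest library and NkdΔR1S replicate 2 its lowest.

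Within complex IV the order ran from COX7C at 211 RPKM to COX5A at 464, a narrow range. Complex II, the smallest complex, was narrower in absolute terms, with SdhA (the flavoprotein that oxidizes succinate) at 90.8 and SdhC (a membrane anchor) at 146. Complex III ran from UQCR-6.4 at 101 to UQCR-C1, a core subunit, at 204. Complex I had the widest range in relative terms, from ND-MWFE at 1.42 to ND-MLRQ at 483. ND-MLRQ is the counterpart of mammalian NDUFA4, which was first described in complex I and has since been placed with complex IV in mammals. In complex V the lowest of the genes other than paralogs was ATPsyndelta, a subunit of the rotor stalk, at 73.9. Other genes share 35.0% of the exon bases of ND-MWFE, 40.5% of those of UQCR-6.4 and 35.6% of those of ATPsyndelta. Since RPKM is divided by the full exon length, the levels of these lowest members may be too low. The order of the tested members was shared by the libraries, with Spearman correlations between pairs of libraries of 0.906 to 0.994 across 63 genes that share the same exon lengths.

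The paralogs lay far below their parent genes where both were members with counts. ATPsynepsilonL, at 15.1 RPKM, was the highest, and the other 23 ranged from 0 to 1.14 RPKM. In such pairs the parent was between 186-fold (COX7C over COX7CL) and 26818-fold (ATPsynbeta over ATPsynbetaL) higher. For 4 paralogs, ATPsynepsilonL among them, the parent's symbol lies outside the rule, and these were not compared. The 23 low paralogs summed to 267 counts in GFP replicate 1 and 86 in GFP replicate 2, against 14 to 82 in the other 8 libraries. COX7CL held 51 of the 267. Testis markers were low everywhere, with a sum between 0.621 and 2.89 CPM, and their 2 highest sums were also in the GFP libraries.

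**Figure D1:**
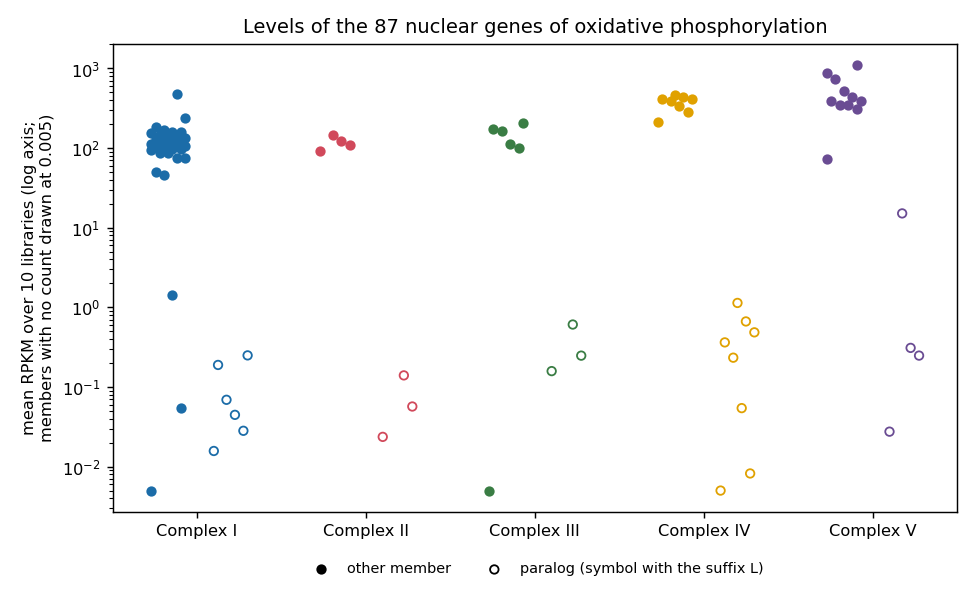
Mean RPKM of the 87 members over 10 libraries (y axis, log scale), by respiratory complex (x axis), with paralogs of the suffix L as open circles and the other members as filled circles. The complex IV and V genes sit highest, ATPsynC reaches 1097 RPKM, and all paralogs but ATPsynepsilonL (15.1 RPKM) stay at or below 1.14 RPKM.

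Across the libraries the members moved together. Their median log2 deviation from the mean of all libraries was 0.40 and 0.20 for GFP, -0.20 and -0.11 for Nkd, 0.17 and -0.02 in NkdΔR1S, -0.29 and -0.27 in NkdΔ30aa and 0.06 and 0.00 in NkdΔD6. The GFP libraries were highest and the NkdΔ30aa libraries lowest, and the NkdΔR1S libraries lay on both sides of the NkdΔD6 libraries. In GFP replicate 1, 62 of 63 members were above their own mean, and in Nkd replicate 1, 1 of 63. The 63 summed to 17615 ± 1570 CPM in GFP (SD, n = 2), 13660 ± 602 in Nkd, 15299 ± 1660 in NkdΔR1S, 12638 ± 187 in NkdΔ30aa and 15091 ± 419 in NkdΔD6.

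The complexes differed in size of the drop. In NkdΔ30aa, complex IV transcripts summed to 62.3% of the GFP sum, complex I to 68.3%, complex V to 74.3%, complex III to 82.0% and complex II to 82.1%. In Nkd the same sums were 70.6% for complex IV, 74.0% for complex I, 80.8% for complexes III and V and 82.4% for complex II. Complexes IV and I had the lowest sums in both groups. With each library's trend on exon length removed, as described below, the median log2 fold changes did not keep these complexes lowest. In NkdΔ30aa the medians were then 0.05 for complex IV, 0.03 for V, -0.05 for III, -0.06 for I and -0.08 for II. In Nkd they were -0.13 for complex III, -0.08 for IV, -0.07 for II, -0.06 for I and -0.005 for V. In NkdΔD6 the sums ranged from 81.2% (complex I) to 94.2% (complex III) of GFP, and in NkdΔR1S complex II had the lowest sum, at 84.0%.

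**Figure D2:**
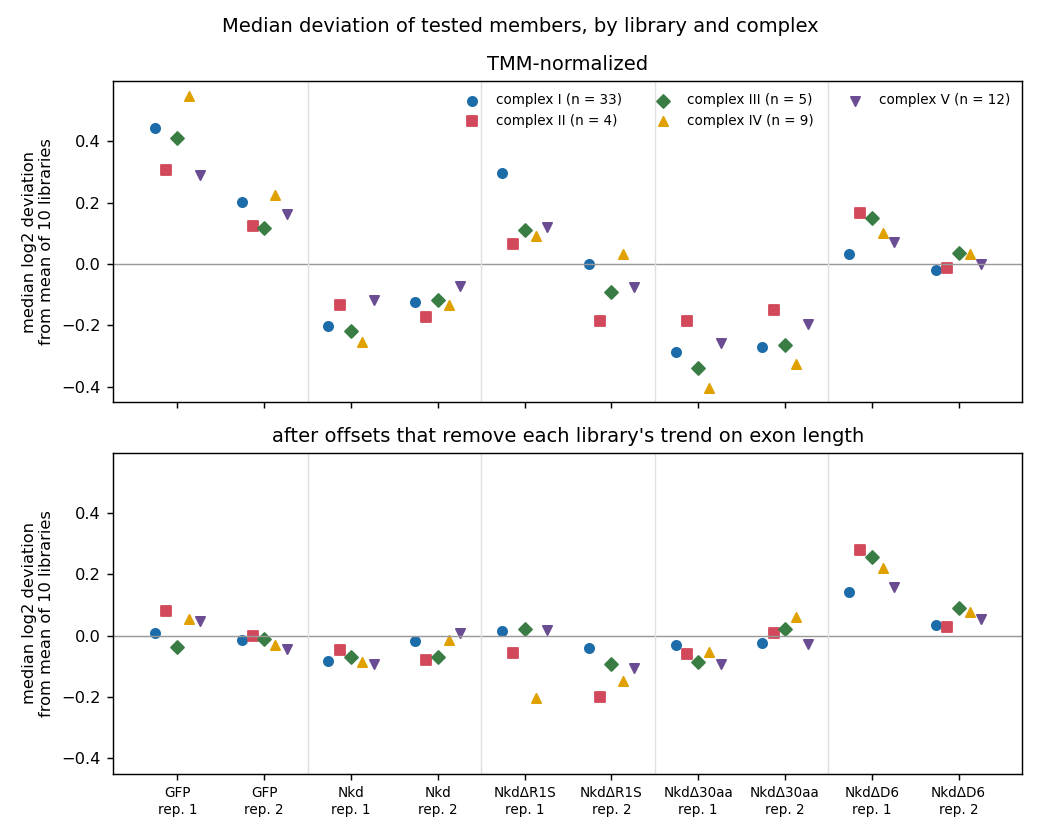
Median log2 deviation of the tested members from their mean over 10 libraries (y axis), for each library (x axis) and complex (marker), before (upper panel) and after (lower panel) offsets that take out the trend of each library on exon length. Before the offsets the complex medians run from 0.55 (complex IV, GFP replicate 1) to -0.40 (complex IV, NkdΔ30aa replicate 1). After them they run from -0.20 (complex IV, NkdΔR1S replicate 1) to 0.28 (complex II, NkdΔD6 replicate 1). The medians over all members, which are not drawn, are 0.40 and 0.20 in GFP and -0.29 and -0.27 in NkdΔ30aa before the offsets. After them they lie between -0.09 and 0.16.

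Full-length Nkd was first compared with GFP. A gene was called when its fold change was over 1.5 and its adjusted p under 0.05 (edgeR quasi-likelihood test with Benjamini-Hochberg adjustment over 9264 genes). In Nkd disks 15 of 63 members were called lower, 23.8%, where 4.51% of all genes tested were called lower, and no member was called higher, where 3.05% of all genes were. The median log2 fold change of the members was -0.45, against -0.05 for all genes. The 15 fell in all complexes: 8 in complex I and 1, 2, 2 and 2 in complexes II to V. Both Nkd libraries were below both GFP libraries for 60 of 63 members, against 36.1% of all genes. The 60 include ND-24L and COX4L, whose direction the filter had fixed. No member reached an unadjusted p under 0.05 in the higher direction, where 16.3% of all genes did.

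UQCR-6.4, a small subunit of complex III, stood at 76.2 and 68.4 CPM in the GFP libraries and at 46.2 and 43.2 in the Nkd libraries. The Nkd values lay well below both GFP values, and the log2 fold change was -0.69 ± 0.10 (SE), with an adjusted p of 0.0209 by edgeR. The gene lies on chromosome 2R, 17572096 to 17572784 on the minus strand, and 40.5% of its exon bases lie under POSH on the other strand. SdhD, a membrane anchor of complex II, was at 148 and 113 CPM in GFP and at 75.1 and 80.1 in Nkd. Its groups were also apart, with a log2 fold change of -0.75 ± 0.15 (adjusted p = 0.0247, edgeR).

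In complex I the largest called changes were those of ND-B14.5A and ND-15, both accessory subunits. ND-15 (chromosome 2L, 114726 to 156030) was at 172 and 135 CPM in GFP and at 87.2 and 93.2 in Nkd, a log2 fold change of -0.77 ± 0.15. ND-B14.5A was at 93.4 and 67.0 CPM in GFP and at 43.7 and 47.9 in Nkd, a change of -0.81 ± 0.20. For both genes GFP replicate 1 was clearly the higher of the pair of controls. In complex IV, COX6B fell by 0.61 and COX5B by 0.59 on the log2 scale, and in complex V, ATPsynCF6, part of the stalk that holds the enzyme's head in place, fell by 0.61.

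The largest called drop in Nkd was that of ATPsynepsilonL, a paralog of the gene for the epsilon subunit of the ATP synthase head. It stood at 11.7 and 10.9 CPM in GFP and at 4.56 and 5.22 in Nkd. The groups did not overlap, and the log2 fold change was -1.21 ± 0.27 (adjusted p = 0.0292, edgeR). At the other end, SdhA and UQCR-C1 had the highest fold changes of all members and were not called. SdhA was at 271 and 250 CPM in GFP and at 257 and 262 in Nkd, and UQCR-C1 at 335 and 302 in GFP and at 321 and 334 in Nkd. Both genes overlapped between the groups, with log2 fold changes of -0.01 ± 0.11 and 0.04 ± 0.14.

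The count of 15 depended on single libraries, as did the count of all genes called lower. Whichever library of the comparison was left out, fewer of all genes were called lower than in the full fit. The count of 15 became 0 when each library's trend on exon length was removed, as described below, where 0.367% of all genes were called lower.

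NkdΔ30aa disks showed more and larger drops. In this comparison 32 of 63 members were called lower, 50.8%, where 12.8% of all genes were called lower. None was called higher, where 18.2% of all genes were. At an unadjusted p under 0.05 (edgeR), 0 members were higher, where 26.2% of all genes were. The median log2 fold change was -0.63 for the members and -0.13 for all genes. The called members were 17 of 33 in complex I (ND-24L among them), 2 of 4 in complex II, 3 of 5 in complex III, 6 of 9 in complex IV and 4 of 12 in complex V. Both NkdΔ30aa libraries were below both GFP libraries for 58 of 63 members (ND-24L and COX4L among them), against 42.4% of all genes. All comparisons with GFP share the same GFP libraries, so that they are not independent of each other.

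ND-AGGG, an accessory subunit of complex I (chromosome 3L, 24976254 to 24977118), was at 175 and 108 CPM in GFP and at 60.2 and 54.7 in NkdΔ30aa. Its GFP libraries differed from each other but both lay far above NkdΔ30aa, with a log2 fold change of -1.30 ± 0.21 (adjusted p = 0.00198, edgeR). UQCR-6.4 was at 38.5 and 34.3 CPM in NkdΔ30aa, its lowest group, a log2 fold change of -0.99 ± 0.10 from GFP (adjusted p = 9.83e-04, edgeR). UQCR-11 (chromosome 3L, 25120709 to 25126171), another subunit of complex III, was at 237 and 242 CPM in GFP and at 137 and 122 in NkdΔ30aa. Its GFP libraries were close together, and the log2 fold change was -0.89 ± 0.13 (adjusted p = 0.00127, edgeR).

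In complex IV, COX5B was at 429 and 324 CPM in GFP and at 204 and 187 in NkdΔ30aa, and COX5A at 528 and 414 and at 272 and 252. For these structural subunits the NkdΔ30aa libraries were tightly paired while GFP replicate 1 was above GFP replicate 2. Their log2 fold changes were -0.95 ± 0.16 and -0.85 ± 0.13. In complex II both membrane anchors fell, SdhD by 0.77 and SdhC by 0.64 on the log2 scale. The catalytic subunits did not pass the test: SdhA was at 251 and 272 CPM in NkdΔ30aa, with a log2 fold change of 0.01 ± 0.11 from GFP.

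ATPsynepsilonL was again the largest called drop among members with more than a few reads, at 4.42 and 3.02 CPM in NkdΔ30aa and a log2 fold change of -1.60 ± 0.28 (adjusted p = 0.00226, edgeR). ATPsynF, a subunit of the membrane part, was at 822 and 574 CPM in GFP and at 383 and 382 in NkdΔ30aa, a change of -0.87 ± 0.18. The highest member was once more UQCR-C1, at 346 and 410 CPM in NkdΔ30aa. Both values lay above both GFP values, but the log2 fold change of 0.25 ± 0.14 did not pass the test.

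ND-24L had 25 counts over the GFP libraries, 0 over NkdΔ30aa, 1 over Nkd and 2 each over NkdΔR1S and NkdΔD6. Since it passed the filter through GFP alone, its lower values elsewhere were fixed by the filter, and its call in NkdΔ30aa is no result. Without ND-24L and COX4L, 31 of 61 members were called lower in NkdΔ30aa, 50.8%.

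The count of 32 in NkdΔ30aa also changed when single libraries were left out, as did the count of all genes called lower. With each library's trend on exon length removed the members' count was 4, where 4.72% of all genes were called lower.

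In NkdΔD6, 5 of 63 members were called lower, 7.94%, where 5.81% of all genes were, so that the share of members was near that of all genes. The median log2 fold change was -0.25 for the members and -0.10 for all genes. No member was called higher, where 10.4% of all genes were. At an unadjusted p under 0.05 (edgeR), 0 members were higher, where 18.6% of all genes were. Both NkdΔD6 libraries were below both GFP libraries for 44 of 63 members (ND-24L and COX4L among them), against 39.5% of all genes. The 5 were ND-MLRQ, ND-B14, ND-15, COX4L and ATPsynepsilonL. COX4L had passed the filter through GFP alone, and without it and ND-24L 4 of 61 members were called, 6.56%. ND-B14 is outside the rule for genes given by library and is named here after its values were seen.

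ND-MLRQ was at 418 and 294 CPM in GFP and at 203 and 239 in NkdΔD6. The groups did not overlap, and the log2 fold change was -0.69 ± 0.18 (adjusted p = 0.0273, edgeR). ND-15 was at 96.6 and 103 CPM in NkdΔD6, with a log2 fold change of -0.63 ± 0.15. ATPsynepsilonL was at 5.66 and 6.72 CPM, with a change of -0.87 ± 0.27. COX4L had 54 counts over the GFP libraries and 2 over the NkdΔD6 libraries, a difference in a direction that the filter had fixed. Most of its GFP signal was in replicate 1, at 2.22 CPM against 0.72 in replicate 2.

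SdhB, the iron-sulfur subunit of complex II, and UQCR-C1 were highest in NkdΔD6 relative to GFP. UQCR-C1 was at 404 and 312 CPM, and SdhB at 183 and 161 against 175 and 151 in GFP. Both overlapped with GFP and neither was called, with log2 fold changes of 0.17 ± 0.14 and 0.08. The count of members called lower in NkdΔD6 fell whichever library of the comparison was left out, as did the count of all genes called lower. No member was called with the exon length trends removed, and the median of the members was then 0.12, above that of all genes (-0.00).

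NkdΔR1S disks stood closest to GFP in calls. No member was called in either direction by edgeR, where 0.119% of all genes were called lower and 0.054% higher. DESeq2 on the 10 libraries also called no member, where it called 84 of 9108 genes lower and 294 higher. At an unadjusted p under 0.05, 14 members were lower and 0 higher, where 9.32% of all genes were lower and 10.6% higher. The median log2 fold change was -0.17 for the members and -0.03 for all genes. Both NkdΔR1S libraries were below both GFP libraries for 26 of 63 members (ND-24L and COX4L among them), against 26.5% of all genes. The highest members were ND-MWFE, at 1.86 and 1.43 CPM against 1.05 and 1.65 in GFP, and ATPsynG, a subunit of the membrane part, at 413 and 366 CPM against 331 and 365. ATPsynG lay just above GFP in both libraries, with a log2 fold change of 0.16 and an adjusted p of 0.350 by edgeR, and ND-MWFE overlapped with GFP.

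**Figure D3:**
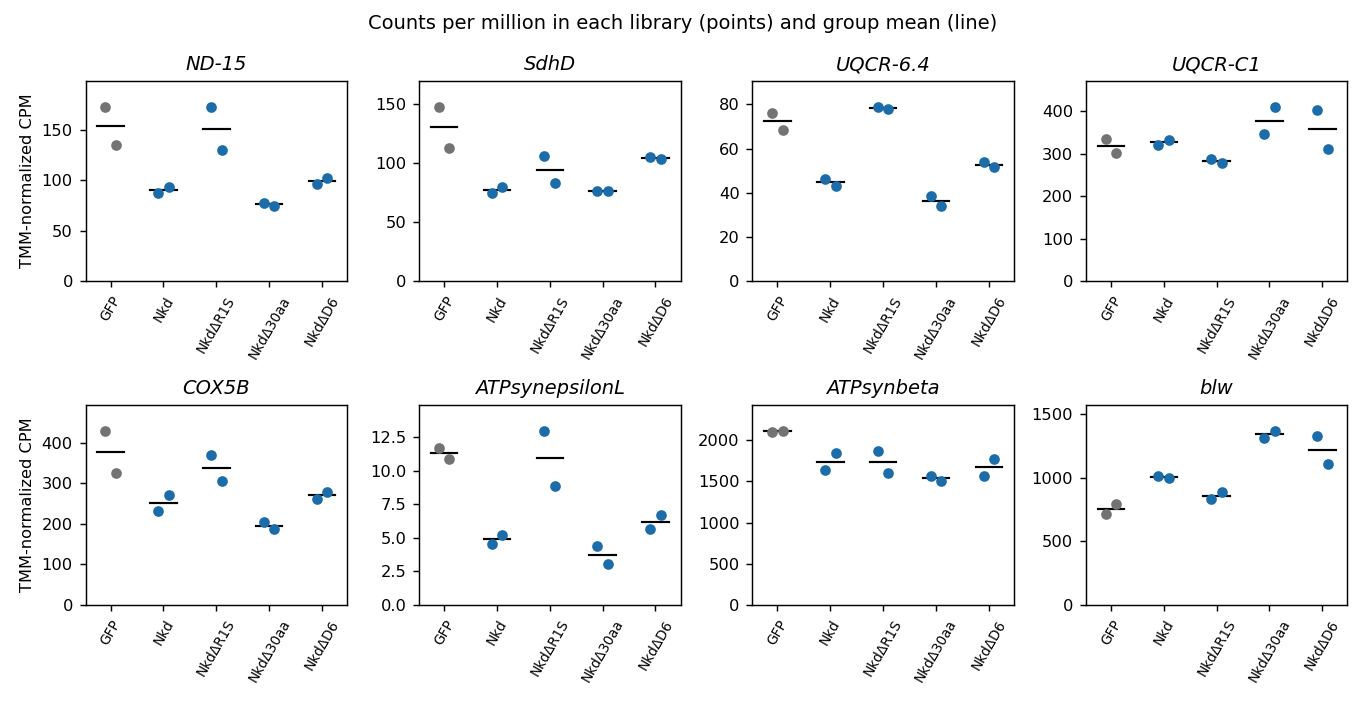
TMM-normalized CPM (y axis, from 0) of 7 members and of blw, the alpha subunit of the ATP synthase, in the 2 libraries of each group (points) with the group mean (line). UQCR-6.4 runs from 34.3 to 38.5 CPM in NkdΔ30aa and from 68.4 to 78.8 in GFP and NkdΔR1S, SdhD, COX5B and ND-15 are low in Nkd and NkdΔ30aa, UQCR-C1 is not, and blw is highest in NkdΔ30aa and NkdΔD6.

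The mutant proteins were also compared with full-length Nkd, which asks whether a deleted region changed the response. NkdΔR1S had 1 member called higher than Nkd, UQCR-6.4, where 0.13% of all genes were called higher. It stood at 78.8 and 78.0 CPM in NkdΔR1S and at 46.2 and 43.2 in Nkd, so that the NkdΔR1S libraries were at the level of GFP. The log2 difference was 0.81 ± 0.10 (adjusted p = 0.0225, edgeR). Without any 1 of the 4 libraries compared the call was lost, with log2 differences between 0.74 and 0.81 and adjusted p values of 0.0509 to 0.212, and with the exon length trends removed the difference was 0.39 (adjusted p = 0.235, edgeR, where 0.119% of all genes were called higher). Over all members the median log2 difference was 0.24, against 0.00 for all genes, and 55 of 63 members were higher in NkdΔR1S. Both NkdΔR1S libraries lay above both Nkd libraries for 42 of 63 members, where 24% of all genes did so.

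nkd itself was lower in NkdΔR1S than in Nkd, with a log2 difference of -1.44 ± 0.32 that was not called (adjusted p = 0.115, edgeR), and the part of the transgene's level in these differences was not tested. NkdΔ30aa and NkdΔD6 had no member called against Nkd by edgeR, where 0.82% and 0.054% of all genes were called lower and 5.86% and 0.0756% higher. At an unadjusted p under 0.05, 8 members were lower in NkdΔ30aa, where 7.75% of all genes were, and 13 higher in NkdΔD6, where 6.76% were. DESeq2 on the 10 libraries called 1 lower in NkdΔ30aa, ND-AGGG, where it called 211 of 8269 genes lower. It called 0 members in NkdΔD6, where 59 of 9388 genes were called higher and 50 lower. The median log2 difference of the members was -0.12 for NkdΔ30aa and 0.17 for NkdΔD6.

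The members are short genes, and fold changes in these libraries depended on exon length. The tested members were 853 exon bases long in the median (quartiles 729.5 and 1248), against 2020 (1227 and 3383) for all genes tested, and 42 of 63 were under 1000 bases. Across all genes, the rank correlation of a library's deviation with exon length was -0.62 and -0.48 for GFP replicates 1 and 2 and 0.62 and 0.55 for those of NkdΔ30aa. Short genes as a class were thus higher in GFP and lower in NkdΔ30aa. The correlation was 0.00 and 0.29 in Nkd, -0.43 and -0.04 in NkdΔR1S and 0.28 and 0.14 in NkdΔD6. The length trend follows the groups in GFP and NkdΔ30aa, and its source in tissue or library cannot be told apart from the group.

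Below 2000 bases the members lay close to all genes of their length class, and the 4 longer members lay lower. Among genes under 1000 bases, the median log2 fold change against GFP was -0.54 for the members and -0.46 for all genes in Nkd, -0.68 and -0.75 in NkdΔ30aa, -0.28 and -0.44 in NkdΔD6, and -0.16 and -0.17 in NkdΔR1S. The members' median was lower than that of all short genes in Nkd and higher in the other 3 groups. From 1000 to 2000 bases the members and all genes had nearly the same median in Nkd (-0.26 and -0.25) and the same in NkdΔ30aa (-0.38 and -0.38), and the members were higher in NkdΔD6 (-0.08 and -0.25). Over 2000 bases, the 4 members (ND-75, SdhA, ATPsynbeta and ATPsyndelta) had medians of -0.20 in Nkd, -0.21 in NkdΔR1S, -0.23 in NkdΔ30aa and -0.11 in NkdΔD6, against 0.21, 0.11, 0.38 and 0.19 for all genes.

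The shares of calls differed more. Among genes under 1000 bases, 13 of 42 members were called lower in Nkd, 31.0% against 15.5% of all genes of that class, and 27 of 42 in NkdΔ30aa, 64.3% against 37.9%. In NkdΔD6, 4 of 42 were called lower, 9.52% against 14.5%, and in NkdΔR1S 0 of 42, where 0.0623% of the class were. The 42 include ND-24L, which is among the 27, and COX4L, which is among the 4. The filter had fixed their direction, so that these calls are no result. These members are also abundant, and the part of abundance in the shares was not tested.

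**Figure D4:**
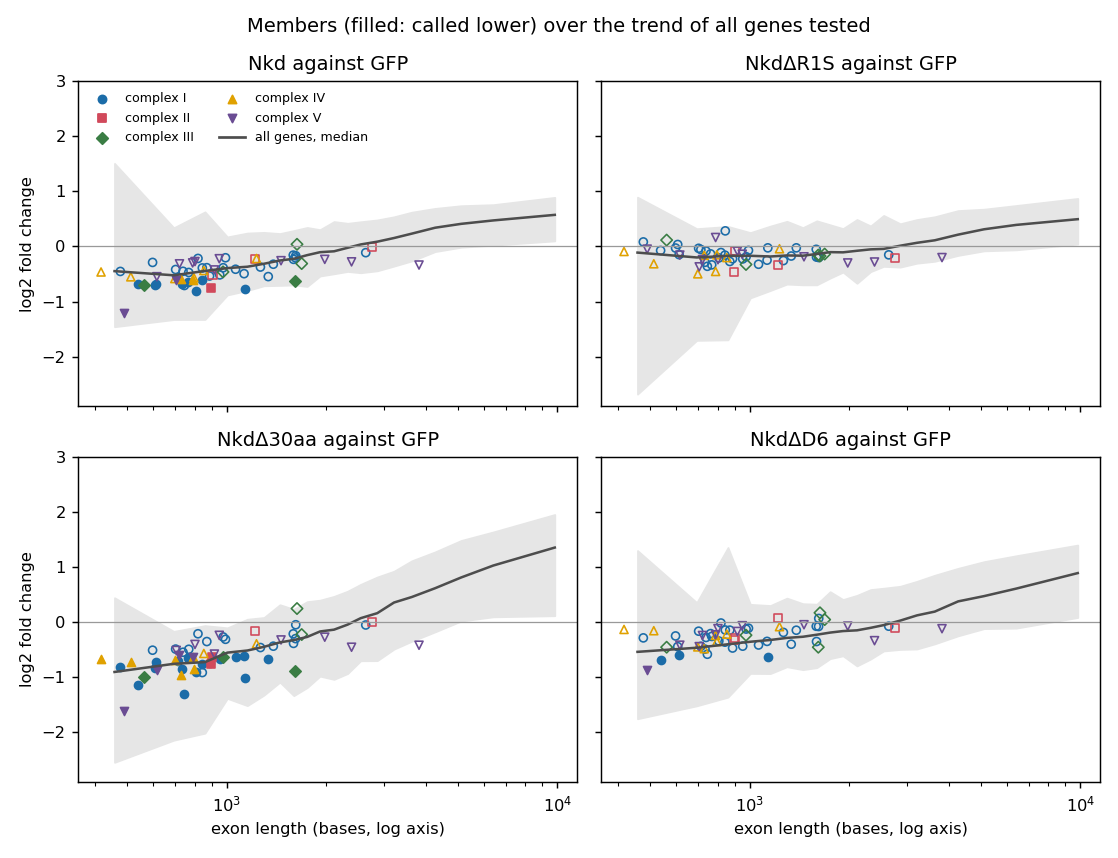
Log2 fold change against GFP (y axis) of 61 tested members (ND-24L and COX4L, with few counts, are left out) on exon length in bases (x axis, log scale), by complex (marker), filled where called lower. The line is the median of all genes tested in 20 bins of length and the band their 10th to 90th percentiles, and in NkdΔ30aa the members' median is -0.68 under 1000 bases and -0.38 from 1000 to 2000 bases, near the line, but -0.23 over 2000 bases, where the line is higher (median of all genes 0.38).

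**Figure D5:**
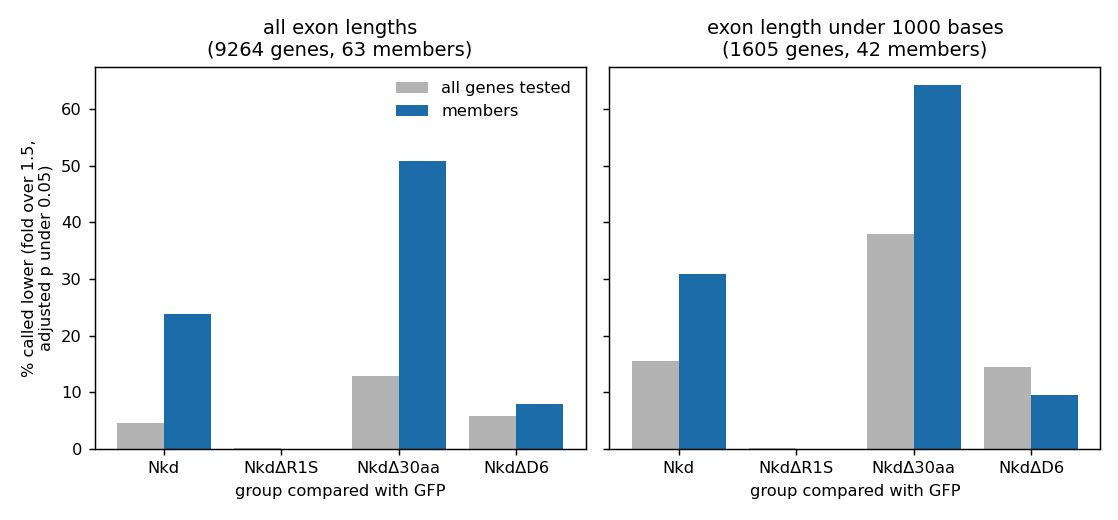
Percent of genes called lower than GFP (y axis, from 0) among all genes tested (gray bars) and members (blue bars), for all exon lengths and for genes under 1000 bases (panels). The members' share is 50.8% against 12.8% in NkdΔ30aa over all lengths and 64.3% against 37.9% among short genes. ND-24L and COX4L, whose direction the filter had fixed, are included.

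Offsets fitted to the length trend of each library took most of the difference away in Nkd, NkdΔR1S and NkdΔ30aa. In NkdΔD6 they turned the sign of the members' median from below 0 to above 0. The members' median log2 fold change against GFP was then -0.06 in Nkd, -0.03 in NkdΔR1S, -0.02 in NkdΔ30aa and 0.12 in NkdΔD6. Members were lower than GFP by sign in 40, 40, 33 and 20 of 63 in the same order. In NkdΔ30aa, 4 members were called lower with the offsets, where 4.72% of all genes were. These were UQCR-11 (-0.61), ND-AGGG (-0.59), ATPsynepsilonL (-0.80) and ATPsyndelta (-0.95). The first 3 were among the 32, while ATPsyndelta had not been called, at 335 and 317 CPM in GFP and 240 and 247 in NkdΔ30aa, and was named after its values were seen. It is the longest of all members, with 3817 exon bases, 35.6% of them under CG2962 on the other strand. Of the 32 members called lower in NkdΔ30aa, 10 had a log2 fold change above 0 with the offsets. By edgeR no member was called lower with the offsets in Nkd, NkdΔR1S or NkdΔD6, where 0.367%, 0.151% and 2.84% of all genes were. At an unadjusted p under 0.05 (edgeR), 9, 6 and 4 members were lower and 4, 2 and 19 higher in these groups. In NkdΔ30aa 10 were lower and 10 higher at that level. The share of all genes at that level with the offsets was not determined.

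Subunits of different roles also differ in length. In complex I, the 7 core subunits had 1336 exon bases in the median, and the 25 accessory subunits 807. Most of the core subunits carry the flavin and iron-sulfur centers or bind ubiquinone. In NkdΔ30aa 2 of 7 core subunits (ND-24 and ND-20) and 14 of 25 accessory subunits were called lower, and in Nkd 0 of 7 and 8 of 25. The median log2 fold changes in NkdΔ30aa were -0.27 and -0.67, and -0.10 and -0.02 with the offsets. These role groups were drawn after the values were known.

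The head of the ATP synthase held the clearest exception. Among its nuclear subunits, ATPsynbeta, the catalytic subunit, was at 2103 and 2113 CPM in GFP and at 1568 and 1509 in NkdΔ30aa. The groups were apart, but the log2 fold change of -0.45 ± 0.11 was below the fold threshold. blw, which encodes the alpha subunit that alternates with beta in the head, has a symbol outside the rule. It was at 718 and 795 CPM in GFP, 1019 and 999.1 in Nkd, 831 and 890 in NkdΔR1S, 1314 and 1371 in NkdΔ30aa and 1332 and 1112 in NkdΔD6. All 8 libraries with an Nkd transgene were above both GFP libraries.

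The log2 fold change of blw was 0.83 ± 0.11 in NkdΔ30aa (adjusted p = 0.00109, edgeR) and 0.69 ± 0.11 in NkdΔD6 (adjusted p = 0.00950, edgeR), and both genes kept their direction with the length offsets, at 0.84 and 0.77 for blw and -0.50 and -0.28 for ATPsynbeta. blw (2252 exon bases) and ATPsynbeta thus moved in opposite directions although their products are present in equal number in the enzyme.

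Other genes of the pathway came from lists drawn with earlier results of these data known. Of 9 further nuclear subunits and cytochrome c genes outside the rule, 8 were tested. In NkdΔ30aa 5 were called lower and 1, blw, higher, where 12.8% and 18.2% of all genes were. Their median exon length was 637 bases, and 37.9% of all genes under 1000 bases were called lower. The largest drops were those of sun (-1.12), the epsilon subunit of the ATP synthase, and ox (-1.01), a subunit of complex III. In Nkd 2 were called lower (ox, -0.89, and sun, -0.72), in NkdΔD6 1 was (sun, -0.67) beside blw higher, and in NkdΔR1S none. With the offsets only blw was called in NkdΔ30aa and NkdΔD6. Of 8 tested assembly factors, 3 were called lower in NkdΔ30aa, of which Sirup (-1.19) and Sdhaf3 (-0.83) act on complex II, and 2 in Nkd, where 12.8% and 4.51% of all genes were called lower. Their median exon length was 969.5 bases, and with the offsets edgeR called none.

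The citric acid cycle feeds electrons to complexes I and II. Of 15 tested genes listed for it, 3 were called higher and 1 (Idh) lower in NkdΔ30aa, where 18.2% and 12.8% of all genes were. In NkdΔD6 2 were called higher, where 10.4% were. mAcon1, a mitochondrial aconitase, was at 181 and 213 CPM in GFP and at 378 and 371 in NkdΔ30aa, a log2 fold change of 0.92 ± 0.12, and kdn, the citrate synthase, changed by 0.87 ± 0.11. Both groups of libraries were apart for mAcon1, and with the offsets the changes were 0.62 and 0.66. Ogdh, a subunit of the oxoglutarate dehydrogenase, was at 0.61 without and -0.25 with the offsets. Idh, an isocitrate dehydrogenase, fell by 0.80 on the log2 scale in NkdΔ30aa, and by 0.86 with the offsets. Idh3a, a subunit of another isocitrate dehydrogenase, was at 0.53 there and not called.

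Of 11 glycolytic genes tested, Hex-A, a hexokinase, was called higher in Nkd (0.81), NkdΔ30aa (0.995) and NkdΔD6 (0.999), and Pglym78 (-0.73) and Gapdh1 (-0.72) lower in NkdΔ30aa. Of these calls only that of 1 gene, Hex-A in NkdΔD6 (0.67), was kept with the offsets. Of all genes tested, 3.05%, 18.2% and 10.4% were called higher in Nkd, NkdΔ30aa and NkdΔD6, and 12.8% lower in NkdΔ30aa. Of 10 tested genes that maintain and express mitochondrial DNA, 2 were called higher and 1 lower in NkdΔ30aa, and 2 higher in NkdΔD6. PolG1, the catalytic subunit of the polymerase of this DNA, rose by 1.17 on the log2 scale in NkdΔ30aa. TFAM, which packages this DNA, fell by 0.61 there. PolrMT, the mitochondrial RNA polymerase, rose by 0.96. With the offsets the changes of PolG1, TFAM and PolrMT were 0.68, -0.17 and 0.22. TFAM and PolrMT were then below the fold threshold and not called. Of 7 tested regulators, which are long genes (median 4130 exon bases), 1, 3 and 1 were called higher in Nkd, NkdΔ30aa and NkdΔD6. Of all genes over 2000 bases, 5.79%, 34.7% and 19.7% were called higher in these groups. In NkdΔ30aa and NkdΔD6 1 regulator was called lower, where 12.8% and 5.81% of all genes were. Myc was called higher in Nkd (1.01), NkdΔ30aa (1.22) and NkdΔD6 (0.72). With the offsets these were 0.49, -0.03 and -0.06. crc, the counterpart of mammalian ATF4, was called lower in NkdΔ30aa (-0.93) and NkdΔD6 (-1.12), and with the offsets -1.34 and -1.32.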

How the data were processed

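The authors deposited raw counts for each gene together with its exon length in bases. Their notes name HISAT2 2.2.1 and BDGP6 for the alignment of the read pairs, featureCounts for counting and DESeq2 for testing. The sources used here do not give the strand setting, and all 125 genes lying fully under other-strand genes had 0 counts. The counts of all 10 libraries equalled the series-wide table. Symbols came from the gene name table (17710 of 17807 IDs), and the spans of the 87 members equalled the annotation. Members and lists were chosen with earlier results of these data known.

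The counts of all 10 libraries entered a single edgeR 4.0.16 model (R 4.3.3) of group, with filterByExpr by group, TMM factors and the robust quasi-likelihood test, which left 5 residual degrees of freedom. P-values were adjusted by Benjamini-Hochberg over the 9264 genes tested. A gene was called at a fold above 1.5 together with an adjusted p below 0.05. CPM and RPKM were computed from the counts, TMM factors and exon lengths. Length offsets came from a lowess curve (span 0.3) of each library's deviation on log exon length. The script was tested on simulated data. Other settings tried were RLE factors, all genes with no filter, DESeq2 1.42.0, fits of the 4 libraries compared, a replicate block, length offsets, no fold threshold and leaving out each library. With 2 libraries a group, leaving out 1 leaves a lone library whose spread is taken from the other groups.

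Values by library are given for the highest and lowest tested member of each complex by RPKM, the 2 called members of each complex with the largest change in each comparison with GFP, the 2 highest and 2 lowest members in each, and, from the other lists, the 2 called genes with the largest change in each direction.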

Additional observations from a re-analysis of the deposited data

Results flagged for a closer look

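UQCR-6.4 was the only member that edgeR on the 10 libraries called different between a Nkd mutant and full-length Nkd. DESeq2 on the same libraries called 4 higher in NkdΔR1S (UQCR-6.4, ND-B12, ND-15 and ATPsynepsilonL), where it called 176 of 8828 genes higher. It called ND-AGGG lower in NkdΔ30aa, where 211 of 8269 genes were called lower. For UQCR-6.4 the log2 difference of NkdΔR1S from Nkd was 0.81 ± 0.10 (adjusted p = 0.0225, edgeR), and both NkdΔR1S libraries were higher than both Nkd libraries. In the alternatives that kept all 10 libraries and no length offsets the difference was between 0.77 and 0.81. With length offsets it was 0.39 (adjusted p = 0.235, edgeR), and 40.5% of the exon bases lie under POSH.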

How the results depend on the processing

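The members called lower than GFP, in the order Nkd, NkdΔ30aa and NkdΔD6, numbered 8, 24 and 2 with RLE normalization, 6, 31 and 2 without the filter, 10, 23 and 3 with DESeq2 on 10 libraries, 0, 24 and 1 with edgeR on the 4 libraries compared, 9, 20 and 2 with DESeq2 on those 4, and 30, 49 and 14 with no fold threshold. They were 0, 4 and 0 with length offsets, and 7, 19 and 2 among the 35 members that share no exon base with another gene, an alternative chosen after seeing the data in which fewer members are counted. Another chosen then left out ND-24L and COX4L and gave 15, 31 and 4. With edgeR on the 4 libraries, 0 of 8736 genes were called lower in Nkd, 976 of 8708 in NkdΔ30aa and 313 of 8777 in NkdΔD6. The cause of the other changes was not tested. The median log2 fold changes against GFP with the offsets were -0.060 in Nkd, -0.032 in NkdΔR1S, -0.024 in NkdΔ30aa and 0.12 in NkdΔD6, and against Nkd 0.017 in NkdΔR1S and 0.021 in NkdΔ30aa. The 1 member higher in NkdΔR1S than in Nkd became 2 without the filter (UQCR-6.4 and ND-B12, median 0.13), 4 and 3 with DESeq2 on 10 and on 4 libraries, and 0 with edgeR on 4 libraries, with offsets and among the 35. Of all genes, 33 of 14420 were called higher in NkdΔR1S than in Nkd without the filter. DESeq2 called 176 of 8828 on 10 libraries and 101 of 8727 on 4. In NkdΔ30aa against Nkd, 1 member, ND-AGGG, was lower with DESeq2 on 10 libraries and with both tools on 4. There DESeq2 called 211 of 8269 genes lower on 10 libraries and 220 of 8540 on 4, and edgeR on 4 called 151 of 8602.

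With the replicate block the counts lower than GFP were 14, 32 and 4, and with block and offsets together 0, 2 and 0. The medians against GFP were then -0.060, -0.032, -0.024 and 0.12 in the order above, and those against Nkd 0.015 and 0.020. Deviations of libraries with the same number correlated between -0.22 and 0.37, so that the numbers were not taken to pair the samples.

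Leaving out 1 library in turn gave 0 to 16 lower calls in Nkd (median -0.40 to -0.32), 19 to 34 in NkdΔ30aa (-0.66 to -0.52) and 0 to 4 in NkdΔD6 (-0.26 to -0.14), a median of -0.22 to -0.029 in NkdΔR1S, 0 to 1 higher calls in NkdΔR1S against Nkd (0.13 to 0.27) and a median of -0.26 to -0.16 in NkdΔ30aa against Nkd. With the offsets, 10 of the 32 members called lower in NkdΔ30aa were above 0. SdhA in Nkd was 0.080 with RLE, 0.10 without the filter, 0.081 with DESeq2 on 10 libraries, 0.042 and 0.062 with edgeR and DESeq2 on 4, and 0.048 to 0.12 with 1 library left out. SdhA in NkdΔ30aa was -0.17 with the offsets, with or without the block, and -0.045 to 0.075 with 1 library left out. ND-MWFE in NkdΔR1S ran from -0.0025 to 0.72 with 1 library left out.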
